A study of Mus musculus with 3 samples.

Results

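*Ccl2*, *Ccl7*, *Ccl12*, *Ccl3*, *Ccl4*, *Ccl6* and *Ccl9* encode CC chemokines that myeloid cells release in inflammation. These 7 genes, of 32285 in the count matrices, were listed by name, with earlier results of these data known. Their raw counts were taken by library, by cDC1 cluster and in barcodes outside the deposited cDC1 table. CCL2, CCL7 and CCL12 bind CCR2 and draw monocytes out of the blood. CCL3, CCL6 and CCL9 bind CCR1. *Ccl12*, *Ccl6* and *Ccl9* are rodent genes without a direct human counterpart.

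MCA205 LA-OVA tumours were taken on day 5, and pre-cDCs, cDC1s and cDC2s were sorted from them and sequenced by scRNAseq, with 1 library per genotype. The WT library pooled 37 mice (25 male and 12 female), the *sGsn-/-* library 31 (15 and 16) and the *sGsn-/- Clec9a-/-* library 27 (10 and 17). All mice carried the same tumour, and beyond the tumour cells no treatment was named in the labels. Values of the 3 libraries are given below in the order WT, *sGsn-/-*, *sGsn-/- Clec9a-/-*. The libraries held 12763, 8173 and 9273 barcodes, with medians of 13210, 11954 and 10649 UMIs. Of the 30209 barcodes, 24403 were outside the deposited table.

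Of the genes targeted in these mice, *Clec9a* was counted in cDC1s at 168, 168 and 0.0931 CPM (UMIs scaled to the sum of each library and group). *Gsn* was at 152, 169 and 167 CPM. Counts per gene do not separate the transcript of the secreted form, so *Gsn* does not check the label of the *sGsn-/-* library.

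The 5806 cDC1s of the deposited table numbered 2316, 1712 and 1778. Among the other barcodes, 3723 held at least 5 UMIs of *C1qa* (1874, 764 and 1085, "C1qa barcodes") and 5442 held at least 2 of *Cd209a* and none of *C1qa* (2677, 1189 and 1576, "Cd209a barcodes"). At least 1 UMI of *Ncr1* was found in 3837 barcodes, of which 155 also met the *C1qa* rule and 220 the *Cd209a* rule. Each barcode was used once, which left 3462 "Ncr1 barcodes" (904, 1471 and 1087). The sort gated out NK1.1 and CD88, so that neither NK cells nor macrophages were populations it was set to keep. Median depth was 13501 UMIs in cDC1s, 17024 in C1qa barcodes, 12611.5 in Cd209a barcodes and 8321 in Ncr1 barcodes. Barcodes with at least 1 UMI of a marker of another class made up 18.1%, 14.1%, 11.4% and 17.2% of the 4 groups. The markers were *C1qa*, *Cd209a* and *Ncr1* in cDC1s and *C1qa*, *Cd209a* and *Xcr1* in Ncr1 barcodes. In C1qa and Cd209a barcodes they were *Ncr1*, *Xcr1* and the T cell gene *Cd3e*. *Cd209a* was not checked in C1qa barcodes, so those with both were kept when barcodes of 2 classes were left out.

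Marker genes placed the groups. Summed CPM of 10 macrophage markers in the C1qa barcodes was 8129, 6873 and 6692, with *C1qb* the most abundant, and all 10 were called higher than in cDC1s, as were 5 of 6 monocyte, 4 of 7 measured cDC2 and 6 of 7 NK cell markers (1, 3 and 1 lower). In the Ncr1 barcodes 7 NK cell markers summed to 5751, 6192 and 6571 CPM, *Gzma* leading, and all 7 were called higher than in cDC1s, as were 4 of 5 T cell, 3 of 3 plasmacytoid, 5 of 10 macrophage and 3 of 7 measured cDC2 markers (0, 0, 3 and 3 lower). In Cd209a barcodes the 7 measured cDC2 markers summed to 1241, 1229 and 1153 CPM with 5 called higher than in cDC1s and 2 lower, while 9 of 10 macrophage, 5 of 6 monocyte, 6 of 7 NK cell, 5 of 5 T cell and 3 of 3 plasmacytoid markers were also called higher (1 NK cell marker lower). All 6 cDC1 markers were called lower in C1qa and in Ncr1 barcodes, and 5 of 6 in Cd209a barcodes. Among all tested genes, 33.1% were called higher and 31.7% lower in C1qa barcodes than in cDC1s. The shares were 30.2% and 26.9% in Cd209a barcodes and 35.8% and 35.7% in Ncr1 barcodes. In the 3 libraries of the 4 groups, neutrophil markers summed to at most 5.04 CPM, fibroblast or tumour markers to at most 2.13, mast cell or basophil markers to at most 3.09 and B cell markers to at most 0.679.

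The name of the list held for part of it. *Ccl12*, *Ccl9*, *Ccl6*, *Ccl3* and *Ccl2* were at their highest mean CPM in the C1qa barcodes among the 4 groups, as was *Ccl7*. *Ccl4* was highest in cDC1s, and *Ccl3* and *Ccl4* were also counted in the Ncr1 barcodes, so that the genes are called the 7 CC chemokine genes here. Summed over the 7 genes, mean CPM over the 3 libraries was 2435 ± 150 (SD) in C1qa barcodes, 1349 ± 73.3 in cDC1s, 1168 ± 156 in Cd209a barcodes and 883 ± 212 in Ncr1 barcodes. The SD over libraries throughout includes any difference between genotypes.

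**Figure D1:**
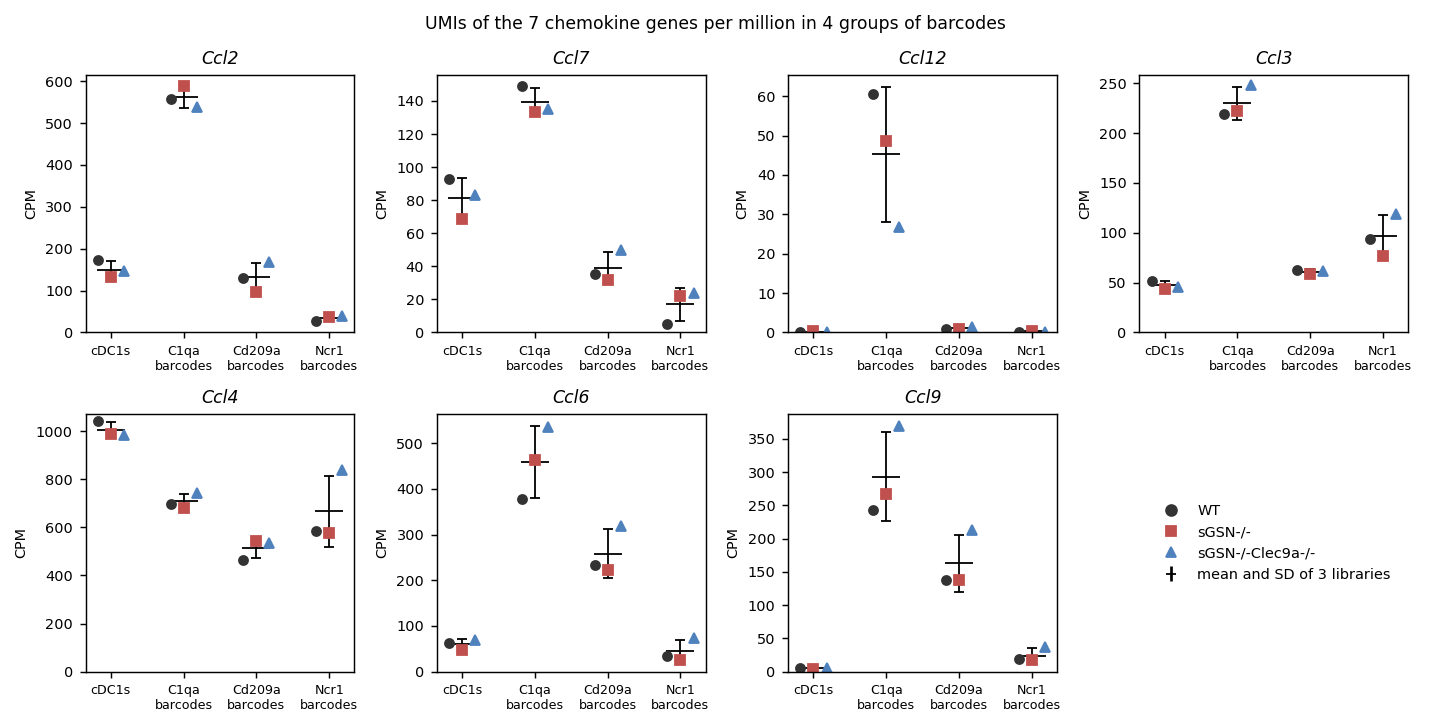
CPM of *Ccl2*, *Ccl7*, *Ccl12*, *Ccl3*, *Ccl4*, *Ccl6* and *Ccl9* in each of the 3 libraries, with mean and SD, in cDC1s and in C1qa, Cd209a and Ncr1 barcodes. *Ccl4* had its highest mean in cDC1s (1004 CPM) and the other 6 genes in C1qa barcodes.

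Among the CCR2 ligands, *Ccl2* was counted at 557, 588 and 539 CPM in C1qa barcodes and at 172, 132 and 147 CPM in cDC1s. In Cd209a barcodes it stood at 129, 96.8 and 168 CPM and in Ncr1 barcodes at 27.5, 37.2 and 38.0 CPM. The lowest library of the C1qa barcodes was above every library of the other groups, and the ranges of cDC1s and Cd209a barcodes overlapped. In edgeR quasi-likelihood tests on sums per library and group with Benjamini-Hochberg adjustment over 13213 genes, *Ccl2* was 3.31-fold higher in C1qa barcodes than in cDC1s (log2 fold change 1.72, adjusted p = 1.26e-06, 3 of 3 libraries). Against Cd209a barcodes its log2 fold change was 2.08 (edgeR quasi-likelihood with Benjamini-Hochberg, adjusted p = 1.29e-06, 3 of 3 libraries). Ncr1 barcodes carried 5.36-fold less than cDC1s (log2 fold change -2.42, edgeR quasi-likelihood with Benjamini-Hochberg adjusted p = 5.79e-08, 3 of 3 libraries).

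Between Cd209a barcodes and cDC1s the *Ccl2* call depended on the model. Its log2 fold change was -0.35 with an adjusted p of 0.0999 (edgeR quasi-likelihood, Benjamini-Hochberg), and 2 of 3 libraries showed that direction. With the library as a block it was -0.37 with an adjusted p of 0.0409. Without the *sGsn-/- Clec9a-/-* library it was -0.58 with an adjusted p of 0.0211.

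*Ccl7* was counted at 149, 133 and 135 CPM in C1qa barcodes, at 92.7, 68.4 and 83.1 CPM in cDC1s and at 35.2, 31.7 and 49.7 CPM in Cd209a barcodes. Those 3 ranges did not overlap. Ncr1 barcodes gave 5.21, 22.0 and 23.5 CPM. The step from cDC1s to C1qa barcodes had a log2 fold change of 0.60 with an adjusted p of 0.0864 (edgeR quasi-likelihood, Benjamini-Hochberg), in 3 of 3 libraries, and with the library as a block the adjusted p was 0.0309. Without the WT library it was 0.63 with an adjusted p of 0.0172. Cd209a barcodes were 2.35-fold lower than cDC1s (log2 fold change -1.23, edgeR quasi-likelihood with Benjamini-Hochberg adjusted p = 0.00316, 3 of 3 libraries). Ncr1 barcodes were 5.83-fold lower than cDC1s (log2 fold change -2.54, edgeR quasi-likelihood with Benjamini-Hochberg adjusted p = 1.18e-05, 3 of 3 libraries).

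*Ccl12* was counted in C1qa barcodes at 60.5, 48.5 and 26.7 CPM, from 2197, 911 and 651 UMIs. All cDC1s together held 13 UMIs (5, 7 and 1), Cd209a barcodes 77 (32, 15 and 30) and Ncr1 barcodes 10 (2, 6 and 2). The 11776 barcodes that met none of the rules held 323 (155, 53 and 115), at a mean of 2.58 CPM. Against Cd209a barcodes it was 46.4-fold higher in C1qa barcodes (log2 fold change 5.54, edgeR quasi-likelihood with Benjamini-Hochberg adjusted p = 4.59e-08, 3 of 3 libraries). Against the few UMIs of cDC1s its log2 fold change was 7.87 (edgeR quasi-likelihood with Benjamini-Hochberg, adjusted p = 1.89e-09, 3 of 3 libraries). From cDC1s to Cd209a barcodes it rose 5.04-fold (log2 fold change 2.33, edgeR quasi-likelihood with Benjamini-Hochberg adjusted p = 0.0177, 3 of 3 libraries), a call that was lost without the *sGsn-/-* library (log2 fold change 2.99, adjusted p = 0.0509) and after thinning (1.55, adjusted p = 0.160). Without the *sGsn-/- Clec9a-/-* library it was 1.72 (adjusted p = 0.0108).

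The C1qa barcodes did not share their *Ccl12* evenly. The 1% of cells with most *Ccl12* held 48.8% of its UMIs (48.7%, 56.97% and 34.3% by library), and a single cell held up to 96, 205 and 35 UMIs. For *Ccl2* the same 1% held 12.1%, and for *Ccl7* 24.4%. In cDC1s the top 1% of cells held 24.5% of *Ccl2* and 47.0% of *Ccl7* UMIs.

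Shares of cells were compared after thinning to 3000 UMIs, which left out 63 C1qa barcodes, 210 cDC1s, 147 Cd209a barcodes and 378 Ncr1 barcodes of lower depth. At least 1 UMI of *Ccl2* was then found in 42.4%, 47.1% and 48.1% of C1qa barcodes (64.2%, 70.5% and 71.7% unthinned) and in 17.9%, 14.2% and 15.7% of cDC1s (30.4%, 23.7% and 26.9%). NK cells served as the type that should lack it, and 3.86%, 3.79% and 3.85% of Ncr1 barcodes held a UMI (9.73%, 8.23% and 8.19%), at a median depth of 8321 UMIs against 17024 in C1qa barcodes. *Ccl7* was found in 12.05%, 13.6% and 14.7% of C1qa barcodes (24.1%, 27.2% and 27.4%), in 7.85%, 4.72% and 5.54% of cDC1s (11.7%, 6.95% and 9.45%) and in 0.819%, 1.08% and 1.92% of Ncr1 barcodes (3.10%, 2.58% and 3.86%). *Ccl12* was found in 6.62%, 6.40% and 5.99% of C1qa barcodes (14.7%, 18.6% and 16.04%) and in 0.0882%, 0.123% and 0.0589% of cDC1s, the type taken to lack it (0.216%, 0.409% and 0.0562%, median depth 13501 UMIs).

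Transcripts of the CCR2 ligands were also counted by cell. Among thinned C1qa barcodes *Ccl7* was present in 24.6%, 26.3% and 25.7% of those with *Ccl2* and in 2.80%, 2.27% and 4.404% of those without. In cDC1s these shares were 30.5%, 22.9% and 24.8% against 2.90%, 1.72% and 1.96%, and in Cd209a barcodes 18.2%, 16.98% and 21.1% against 1.82%, 1.26% and 1.30%. *Ccl12* in C1qa barcodes was present in 12.4%, 11.05% and 9.29% of those with *Ccl2* and in 2.33%, 2.27% and 2.94% of those without.

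Within the cDC1s, *Ccl2* and *Ccl7* were concentrated in cluster 2 (357, 196 and 263 cells). As the clusters were called on the same genes, cluster values are a description. *Ccl7* was at 369, 404 and 370 CPM in cluster 2, and these 816 cells held 4391 of the 6424 *Ccl7* UMIs of all cDC1s. Its mean there, 381 ± 20.05 CPM, stood first among the 12 clusters and the 3 outside groups, with no overlap of libraries with the C1qa barcodes in second place (139 ± 8.44). Cluster 7 came next at 77.5 ± 36.6 CPM and overlapped with cluster 6 at 67.0 ± 70.2.

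*Ccl2* in cluster 2 was at 572, 584 and 480 CPM, and the cluster held 6360 of 11879 UMIs. Its mean of 545 ± 56.9 CPM overlapped with the C1qa barcodes (562 ± 24.6), and cluster 6 came next at 155 CPM. After thinning, a *Ccl2* UMI was found in 48.5%, 45.4% and 43.1% of cluster 2 cells (67.2%, 63.3% and 60.5% unthinned). The 10 macrophage markers summed to 177 CPM in cluster 2 and to 7231 CPM in C1qa barcodes. Per 100 UMIs of *C1qb*, *C1qc* and *Apoe*, 3 of these markers, *Ccl2* stood at 1628 ± 536 UMIs in cluster 2 and at 9.91 ± 1.204 in C1qa barcodes. The gate on *C1qa* itself sets part of the marker level in C1qa barcodes, so these values are a description. In the thinned cluster 2, *Ccl7* was present in 43.0%, 35.2% and 40.9% of cells with *Ccl2* and in 15.3%, 5.66% and 10.3% of those without.

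**Figure D2:**
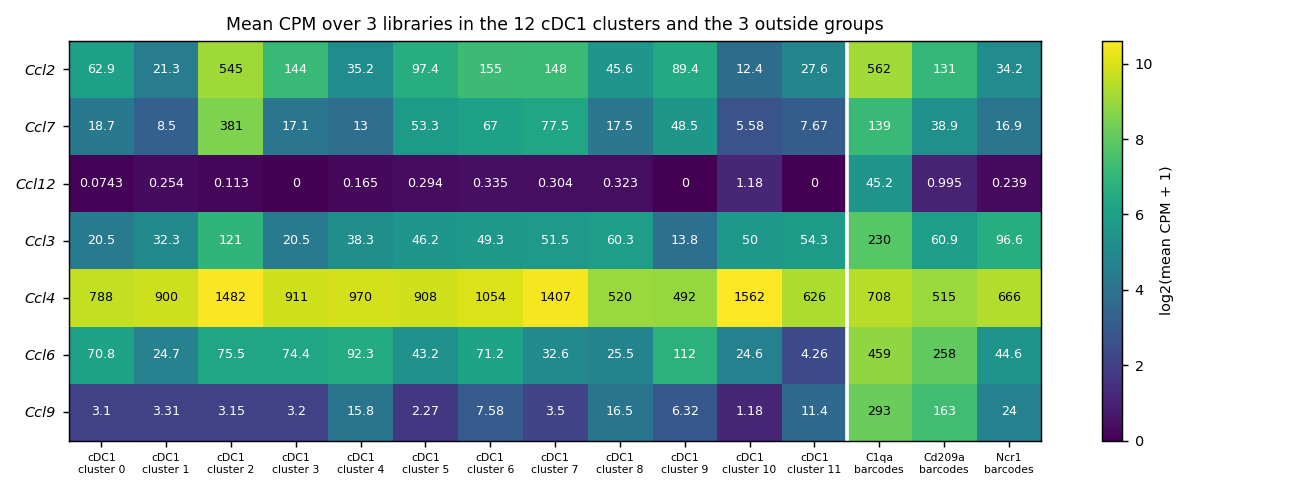
Mean CPM over the 3 libraries of the 7 CC chemokine genes in the 12 cDC1 clusters and the 3 groups outside the table, coloured by log2 of mean CPM plus 1. *Ccl7* was highest in cluster 2 (381 CPM).

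*Ccl3* was counted at 219, 222 and 248.6 CPM in C1qa barcodes and at 94.1, 76.4 and 119 CPM in Ncr1 barcodes. Cd209a barcodes followed at 62.9, 58.4 and 61.6 CPM and cDC1s at 51.8, 43.8 and 45.8 CPM, and none of these ranges overlapped. C1qa barcodes were 4.31-fold higher than cDC1s (log2 fold change 2.11, edgeR quasi-likelihood with Benjamini-Hochberg adjusted p = 1.33e-08, 3 of 3 libraries). Ncr1 barcodes were 1.68-fold higher than cDC1s (log2 fold change 0.74, edgeR quasi-likelihood with Benjamini-Hochberg adjusted p = 0.000252, 3 of 3 libraries). After thinning the gap was wider, with Ncr1 barcodes at 161, 134 and 164 CPM and cDC1s at 51.3, 46.6 and 49.1 CPM. Cd209a barcodes had a log2 fold change of 0.21 against cDC1s (edgeR quasi-likelihood with Benjamini-Hochberg, adjusted p = 0.216, 3 of 3 libraries) and were not called.

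*Ccl4* ran the other way. It was counted at 1043, 988 and 982 CPM in cDC1s, at 698, 681 and 744 CPM in C1qa barcodes and at 465, 544 and 535 CPM in Cd209a barcodes. These ranges did not overlap, while the 585, 577 and 837 CPM of Ncr1 barcodes spanned those of the C1qa barcodes. C1qa barcodes were 1.60-fold lower than cDC1s (log2 fold change -0.68, edgeR quasi-likelihood with Benjamini-Hochberg adjusted p = 0.000391, 3 of 3 libraries). Cd209a barcodes were 2.19-fold lower (log2 fold change -1.13, edgeR quasi-likelihood with Benjamini-Hochberg adjusted p = 5.58e-06, 3 of 3 libraries). Ncr1 barcodes were 1.83-fold lower (log2 fold change -0.87, edgeR quasi-likelihood with Benjamini-Hochberg adjusted p = 3.52e-05, 3 of 3 libraries), which after thinning was -0.22 with an adjusted p of 0.0719. Thinned *Ccl4* was at 1017, 882 and 1116 CPM in Ncr1 barcodes and at 1054, 978 and 979 CPM in cDC1s, with overlap. The mean of per-cell CPM of *Ccl4* was 1042, 931 and 1199 in Ncr1 barcodes and 1030, 962 and 975 in cDC1s. Between Ncr1 and C1qa barcodes its log2 fold change was -0.19 (edgeR quasi-likelihood with Benjamini-Hochberg, adjusted p = 0.196, 2 of 3 libraries) and -0.37 without the *sGsn-/- Clec9a-/-* library (adjusted p = 0.00162). After thinning it was reversed to 0.29 (adjusted p = 0.0233).

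After thinning, *Ccl4* was found in 49.8%, 48.7% and 50.3% of cDC1s (64.9%, 64.5% and 64.6% unthinned), in 41.9%, 42.7% and 47.3% of C1qa barcodes (62.0%, 66.7% and 70.1%) and in 39.1%, 41.0% and 54.8% of Ncr1 barcodes (59.8%, 54.7% and 67.1%). *Ccl3* was found in 26.9%, 30.0% and 30.5% of C1qa barcodes (50.1%, 54.5% and 55.5%), in 13.1%, 13.2% and 16.4% of Ncr1 barcodes (23.1%, 21.1% and 23.1%) and in 6.88%, 7.73% and 6.77% of cDC1s (14.4%, 14.3% and 14.1%). None of the 4 groups could be taken to lack either gene.

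For *Ccl3* and *Ccl4*, in thinned cDC1s *Ccl4* was present in 88.5%, 83.3% and 86.1% of cells with *Ccl3* and in 46.9%, 45.8% and 47.7% of those without. The shares were 70.5%, 70.2% and 75.4% against 31.3%, 30.9% and 34.9% in C1qa barcodes. In Ncr1 barcodes they were 78.6%, 81.3% and 88.2% against 33.1%, 34.8% and 48.3%.

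Across cDC1 clusters *Ccl4* was broadly counted. Cluster 10 had a mean of 1562 ± 360 CPM, cluster 2 of 1482 ± 87.8 and cluster 7 of 1407 ± 182, with overlapping libraries. Cluster 6 followed at 1054 ± 179, with no overlap with clusters 2 and 7 but with cluster 10. With barcodes of 2 classes left out the highest mean was in cluster 2, at 1452 CPM. C1qa barcodes ranked in place 10 of 15, and cluster 8 (520 ± 203), Cd209a barcodes (515 ± 43.1) and cluster 9 (492 ± 148) closed the order with overlapping libraries. *Ccl3* was highest in C1qa barcodes at 230 ± 16.3 CPM, then in cluster 2 at 121 ± 30.4, whose libraries (152, 91.5 and 120 CPM) overlapped with the Ncr1 barcodes, and it was lowest in cluster 9 at 13.8 CPM. Cluster 2 thus held the highest *Ccl7*, *Ccl2* and *Ccl3* of the 12 clusters.

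The CCR1 ligands *Ccl6* and *Ccl9* both had their highest mean in C1qa barcodes and the next in Cd209a barcodes. *Ccl6* was counted at 377, 462 and 536 CPM in C1qa barcodes, at 234, 221 and 319 CPM in Cd209a barcodes and at 63.6, 48.5 and 69.3 CPM in cDC1s, with no overlap. Ncr1 barcodes, at 34.4, 26.4 and 73.0 CPM, overlapped with cDC1s. *Ccl6* was 6.70-fold higher in C1qa barcodes than in cDC1s (log2 fold change 2.74, edgeR quasi-likelihood with Benjamini-Hochberg adjusted p = 3.17e-06, 3 of 3 libraries). Cd209a barcodes were 3.81-fold higher than cDC1s (log2 fold change 1.93, edgeR quasi-likelihood with Benjamini-Hochberg adjusted p = 9.24e-05, 3 of 3 libraries).

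For Ncr1 barcodes against cDC1s the *Ccl6* log2 fold change was -0.74 (edgeR quasi-likelihood with Benjamini-Hochberg, adjusted p = 0.0455, 2 of 3 libraries). It was -0.56 without the WT library (adjusted p = 0.251) and -0.59 without the *sGsn-/-* library (adjusted p = 0.148). After thinning it was -1.82 (adjusted p = 6.23e-07) and with barcodes of 2 classes left out -1.59 (adjusted p = 0.000107). With the barcodes that also met the *C1qa* or *Cd209a* rule added to the Ncr1 group it was 0.24 (adjusted p = 0.380).

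*Ccl9* was counted at 243, 267 and 369 CPM in C1qa barcodes and at 138, 138 and 212 CPM in Cd209a barcodes. Ncr1 barcodes gave 18.3, 17.3 and 36.5 CPM and cDC1s 5.69, 3.35 and 5.82 CPM, from 186, 79 and 125 UMIs, and none of the 4 ranges overlapped. It was 52.1-fold higher in C1qa barcodes than in cDC1s (log2 fold change 5.70, edgeR quasi-likelihood with Benjamini-Hochberg adjusted p = 5.53e-09, 3 of 3 libraries). Cd209a barcodes were 29.2-fold higher than cDC1s (log2 fold change 4.87, edgeR quasi-likelihood with Benjamini-Hochberg adjusted p = 3.54e-08, 3 of 3 libraries). Ncr1 barcodes were 3.88-fold higher than cDC1s (log2 fold change 1.96, edgeR quasi-likelihood with Benjamini-Hochberg adjusted p = 0.000194, 3 of 3 libraries), and the top 1% of Ncr1 barcodes held 70.1% of its UMIs there.

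After thinning, *Ccl9* was found in 38.0%, 38.7% and 49.7% of C1qa barcodes (74.5%, 75.9% and 80.6% unthinned), in 19.6%, 19.5% and 25.7% of Cd209a barcodes (39.3%, 33.7% and 43.4%) and in 1.85%, 0.859% and 1.71% of cDC1s (6.09%, 3.68% and 5.96%). Ncr1 barcodes, taken to lack it, gave 2.92%, 2.48% and 3.85% (7.74%, 5.24% and 7.27%) at a median of 8321 UMIs against 13501 in cDC1s. The share of all cDC1s was thus no larger than that of a type taken to lack the gene. No expression was read from it. After thinning, the shares were 3.65%, 1.84% and 4.26% in cluster 4 and 9.86%, 1.12% and 4.44% in cluster 8. These were above the Ncr1 barcodes in the WT and *sGsn-/- Clec9a-/-* libraries and below them in the *sGsn-/-* library. Ncr1 barcodes were themselves called higher than cDC1s in *Ccl9*, and background in cDC1s was not tested. *Ccl6* was found in 34.8%, 39.9% and 44.8% of C1qa barcodes (71.2%, 75.1% and 73.9%), in 22.9%, 19.2% and 27.1% of Cd209a barcodes (44.3%, 38.6% and 47.9%), in 16.4%, 13.9% and 17.3% of cDC1s (43.1%, 36.0% and 41.5%) and in 3.51%, 2.78% and 5.02% of Ncr1 barcodes (10.6%, 7.27% and 11.6%).

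*Ccl6* was spread over the cDC1s. The top 1% of cDC1s held 9.75% of its UMIs, against 76.0% in Ncr1 barcodes. Among clusters it was highest in cluster 9 at 112 ± 22.4 CPM, overlapping with cluster 4 at 92.3 ± 27.8. After thinning it was highest in cluster 4, at 119 CPM. Cluster 11 held 1 *Ccl6* UMI in its 3 libraries, too few to be ranked. *Ccl9* was highest in cluster 8 at 16.5 ± 3.50 CPM, overlapping with cluster 4 at 15.8. *C1qa* was at 134, 5.51 and 5.82 CPM in cluster 8, and at a mean of 16.3 CPM in cluster 4, against 8.21 in all cDC1s. With barcodes of 2 classes left out the highest mean of *Ccl9* was in cluster 11, where it rested on 1 UMI. In thinned Cd209a barcodes *Ccl9* was present in 45.3%, 52.3% and 54.9% of cells with *Ccl6* and in 11.99%, 11.7% and 14.8% of those without, and in C1qa barcodes in 56.5%, 54.2% and 65.6% against 28.1%, 28.4% and 36.7%. In C1qa barcodes *Ccl6* was present in 30.1%, 39.6% and 36.8% of cells with *Ccl3* and in 36.5%, 40.0% and 48.4% of those without.

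Counts per 100 UMIs of *C1qb*, *C1qc* and *Apoe* placed the same genes beside a macrophage signal in each group. *Ccl9* was at 205 in Cd209a barcodes, 42.3 in Ncr1 barcodes, 12.6 in cDC1s and 5.24 in C1qa barcodes. *Ccl6* was at 327, 79.1, 158 and 8.20 in the same order. As the groups were gated on *C1qa*, the rule itself sets part of this denominator, and the values are a description.

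Taken by comparison, 5 of 7 genes were called higher in C1qa barcodes than in cDC1s (33.1% of all tested genes) and 1 lower (31.7%), so that higher calls were a larger share than among all genes, with a median log2 fold change of 2.11 against 0.0099. In Cd209a barcodes against cDC1s 3 were higher (30.2% of all genes) and 2 lower (26.9%), a median of 0.21 against 0.010. Ncr1 barcodes against cDC1s gave 2 higher (35.8%) and 4 lower (35.7%), with a median of -0.74 against 0.028. C1qa against Cd209a barcodes gave 7 of 7 higher (17.6%) and 0 lower (17% of all genes), a larger share than among all genes, with a median of 1.83 against 0.0034. Ncr1 against C1qa barcodes gave 0 higher (35.3%) and 6 lower (35.1%), a share above that of all genes, with a median of -3.49 against 0.020. The counts of 7 genes were not tested against the shares of all genes in any comparison, and the genes were chosen with earlier results of these data known. The counts of 0 by edgeR were also 0 at an unadjusted p under 0.05 and by DESeq2. The comparisons share sums of the same cells and are not independent.

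The count of 7 in C1qa against Cd209a barcodes fell to 4 without the WT library and to 4 without the *sGsn-/-* library. Without the WT library *Ccl4* was at 0.39 (adjusted p = 0.104), *Ccl6* at 0.87 (0.128) and *Ccl9* at 0.85 (0.0906), and without the *sGsn-/-* library at 0.51 (0.0622), 0.70 (0.154) and 0.79 (0.113), all by edgeR quasi-likelihood with Benjamini-Hochberg. With all 3 libraries their log2 fold changes were 0.45, 0.81 and 0.84 (edgeR quasi-likelihood with Benjamini-Hochberg, adjusted p = 0.0154, 0.0428 and 0.0234), each in 3 of 3 libraries. *Ccl3* was 3.74-fold higher in that comparison (log2 fold change 1.90, edgeR quasi-likelihood with Benjamini-Hochberg adjusted p = 2.47e-07, 3 of 3 libraries) and *Ccl7* 3.55-fold (1.83, adjusted p = 0.000379, 3 of 3 libraries).

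Ncr1 barcodes were 17.7-fold lower than C1qa barcodes in *Ccl2*, 8.82-fold in *Ccl7*, 188-fold in *Ccl12*, 11.2-fold in *Ccl6*, 13.4-fold in *Ccl9* and 2.58-fold in *Ccl3*, each in 3 of 3 libraries. With the overlapping barcodes added to the Ncr1 group the *Ccl12* log2 fold change went from -7.56 to -2.44. Scaling by library size instead of TMM moved the median of all genes to 0.18 in C1qa barcodes against cDC1s, to 0.17 in Cd209a and 0.32 in Ncr1 barcodes, and the share of higher among all calls from 51.1%, 52.8% and 50.05% to 66.6%, 70.5% and 66.5%. In Ncr1 against C1qa barcodes the median moved to 0.13 and the share from 50.2% to 57.6%.

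Receptor genes were also counted. *Ccr1* was at 4.19 CPM in cDC1s, 200 in C1qa, 130 in Cd209a and 14.97 in Ncr1 barcodes, and *Ccr2* at 278, 754, 495 and 323. *Ccrl2*, whose product binds chemerin, was at 17.4, 302, 148 and 33.5 CPM. *Ccr3* did not pass 0.0628 CPM and *Ackr2* had 0 UMIs.

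Of 10 other CC chemokine genes listed, 7 were tested, with 2 higher and 1 lower in C1qa barcodes than in cDC1s (median 0.32), 2 and 2 in Cd209a barcodes (0.21), 3 and 3 in Ncr1 barcodes (0.68), 2 and 1 in C1qa against Cd209a barcodes (0.03), and 3 and 4 in Ncr1 against C1qa barcodes (-2.61). Among all genes the shares were 33.1% and 31.7%, 30.2% and 26.9%, 35.8% and 35.7%, 17.6% and 17%, and 35.3% and 35.1% in that order, and nothing was read from the counts. *Ccl5* was at 2350 CPM in Ncr1 barcodes and at 121 in cDC1s, and *Ccl1* at 95.7 and 0.172. *Ccl22* was at 59.5 CPM in cDC1s and 18.5 in C1qa barcodes, and *Ccl24* at 0.0589 and 5.53.

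All 10 genes of the NF-kB response were called higher in C1qa (median 2.35, beside 33.1% of all genes) and in Cd209a barcodes (1.99, beside 30.2%) than in cDC1s. In Ncr1 barcodes 6 were higher and 2 lower than in cDC1s (0.56, beside 35.8% and 35.7%), in C1qa against Cd209a barcodes 6 and 0 (0.42, beside 17.6% and 17%), and in Ncr1 against C1qa barcodes 1 and 9 (-2.89, beside 35.3% and 35.1%). *Cxcl2* went from 40.7 CPM in cDC1s to 3800 in C1qa barcodes. In cluster 2, where *Ccl2* and *Ccl7* peaked among cDC1s, the 10 genes summed to 1421 CPM, against 2529 in all cDC1s and 5800 in cluster 9.

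Of 12 genes that respond to tissue dissociation, 1 was called higher and 7 lower in C1qa barcodes than in cDC1s (median -0.33, beside 33.1% higher and 31.7% lower among all genes), 1 and 6 in Cd209a barcodes (-0.39, beside 30.2% and 26.9%), 0 and 12 in Ncr1 barcodes (-2.09, beside 35.8% and 35.7%), 1 and 1 in C1qa against Cd209a barcodes (0.11, beside 17.6% and 17%) and 0 and 12 in Ncr1 against C1qa barcodes (-1.81, beside 35.3% and 35.1%). They summed to 12762 CPM in cluster 2, against 21186 in cluster 3, 19434 in cluster 9 and 11345 in all cDC1s. *Ccl2* was at 144 CPM in cluster 3, and what part of *Ccl2* arose during digestion was not tested.

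Likeness over 45 sums (12 cDC1 clusters and 3 outside groups in 3 libraries) was taken among 9385 genes. The 7 genes themselves and the 3 gate genes were left out of the ranking. *Ccl2* was most like *Klf4* (r = 0.742, n = 45), *P2ry10b* (0.734) and *Dusp1* (0.730), and *Ccl7* like *Dyrk3* (0.763), *Usp2* (0.717) and *P2ry10b* (0.687). *Ccl12* was most like *Mertk* (0.939), *C5ar2* (0.935) and *Ang* (0.922), and *Ccl3* like *Ms4a7* (0.655), *C1qb* (0.650) and *Fn1* (0.637). *Ccl4* was most like *Glrx* (0.689), *Isoc1* (0.644) and *BC147527* (0.617). *Ccl6* was most like *Clec4b1* (0.899), *Slamf9* (0.895) and *Mgst3* (0.867), and *Ccl9* like *Sirpa* (0.939), *Clec4a2* (0.904) and *Cd300ld* (0.900). Among the 7 genes, r was 0.846 for *Ccl2* and *Ccl7*, 0.651 for *Ccl9* and *Ccl12*, 0.138 for *Ccl3* and *Ccl4*, and -0.363 for *Ccl4* and *Ccl9*. For *Ccl6* it was 0.589 with *Ccl2*, 0.554 with *Ccl9* and 0.526 with *Ccl7*.

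With 1 library per genotype there was no replicate check on differences between genotypes, and the 95% intervals below hold counting error only. In cDC1s the *sGsn-/-* library differed from WT by log2 ratios of -0.44 for *Ccl7* (-0.53 to -0.35), -0.39 for *Ccl6* (-0.50 to -0.29), -0.38 for *Ccl2* (-0.45 to -0.32), -0.24 for *Ccl3* (-0.36 to -0.13) and -0.08 for *Ccl4* (-0.10 to -0.05). None of these 5 genes at 10 CPM or more passed 1.5-fold, against 0.904% of all genes. Cluster 2 made up 357 of 2316 cDC1s in WT and 196 of 1712 in *sGsn-/-* mice, and within it *Ccl7* was at 369 and 404 CPM and *Ccl2* at 572 and 584 CPM. The part of the cluster's size in the cDC1 ratios was not tested.

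Outside the table, 0 of 7 genes passed 1.5-fold between the *sGsn-/-* and WT libraries in C1qa barcodes (2.11% of all genes), 0 of 6 in Cd209a barcodes (1.78%) and 1 of 6 in Ncr1 barcodes (0.892%). *Ccl6* was at 0.29 (0.25 to 0.33) and *Ccl12* at -0.32 (-0.43 to -0.21) in C1qa barcodes, and *Ccl2* at -0.42 (-0.50 to -0.34) in Cd209a barcodes. After thinning, *Ccl6* in C1qa barcodes was at 353 CPM in the *sGsn-/-* and 319 CPM in the WT library, and *Ccl12* at 56.4 and 62.9 CPM. The mean of per-cell CPM of *Ccl12* was 60.3 and 61.7. With barcodes of 2 classes left out its ratio was larger and passed 1.5-fold. *Ccl7* in Ncr1 barcodes had a log2 ratio of 2.08 (1.69 to 2.49) from 372 UMIs against 62. These came from 38 and 28 cells, of which the single highest held 66 and 10 UMIs, and the ratio was 1.40 after thinning and 1.21 with barcodes of 2 classes left out.

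Between the *sGsn-/- Clec9a-/-* and *sGsn-/-* libraries, *Ccl6* in cDC1s had a log2 ratio of 0.52 (0.40 to 0.63), *Ccl7* of 0.28 (0.18 to 0.38) and *Ccl2* of 0.16 (0.08 to 0.23), and 0 of 5 genes passed 1.5-fold (1.64% of all genes). In C1qa barcodes 1 of 7 did (0.864%), *Ccl12* at -0.86 (-1.01 to -0.72), which with barcodes of 2 classes left out was -0.24, while *Ccl9* was at 0.47 (0.42 to 0.52). The *Ccl12* interval leaves out the uneven sharing of its UMIs among C1qa barcodes given above. In Cd209a barcodes 3 of 6 passed (1.52%), *Ccl2* at 0.79 (0.71 to 0.88), *Ccl7* at 0.65 (0.50 to 0.80) and *Ccl9* at 0.62 (0.55 to 0.69), with *Ccl6* at 0.53 (0.47 to 0.58). The 10 macrophage markers in those barcodes summed to 536 CPM in the *sGsn-/-* and 660 CPM in the *sGsn-/- Clec9a-/-* library. In Ncr1 barcodes 3 of 6 passed (2.24%), *Ccl6* at 1.47 (1.30 to 1.64), *Ccl9* at 1.08 (0.85 to 1.30) and *Ccl3* at 0.64 (0.53 to 0.75). After thinning *Ccl6* was at 0.80 and *Ccl3* at 0.30. Of the 754 *Ccl6* UMIs in the Ncr1 barcodes of the *sGsn-/- Clec9a-/-* library, 4 cells held at least 50%.

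**Figure D3:**
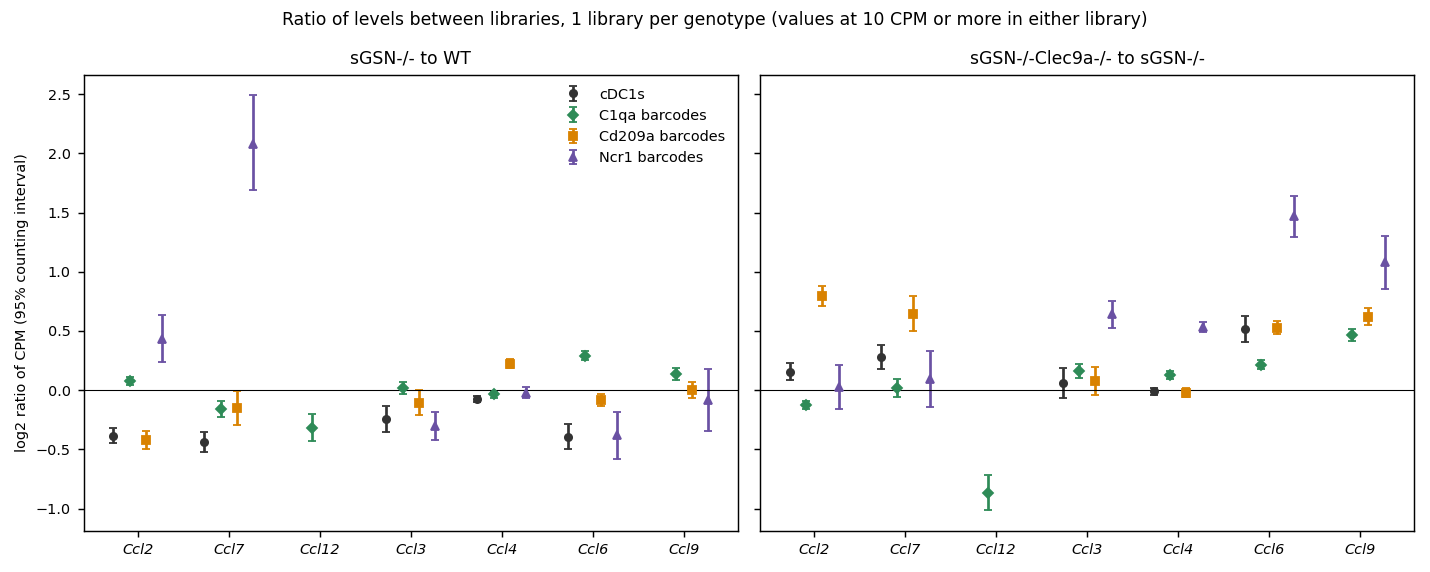
Log2 ratio of CPM with 95% counting intervals for the 7 CC chemokine genes between the *sGsn-/-* and WT and between the *sGsn-/- Clec9a-/-* and *sGsn-/-* libraries, at 10 CPM or more in either library. *Ccl7* in Ncr1 barcodes had the largest ratio between *sGsn-/-* and WT (2.08).

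All 7 genes are on chromosome 11 in GRCm38, in 2 blocks set 1469518 bases apart. *Ccl2* (ENSMUSG00000035385, chr11:82035571-82037453) and *Ccl7* (ENSMUSG00000035373, chr11:82045712-82047525) are 8258 bases apart on the plus strand, and *Ccl12* (ENSMUSG00000035352, chr11:82101845-82103400) follows after 54319 bases on the same strand. *Ccl9* (ENSMUSG00000019122, chr11:83572919-83578636) and *Ccl6* (ENSMUSG00000018927, chr11:83587882-83593087) are 9245 bases apart on the minus strand. *Ccl3* (ENSMUSG00000000982, chr11:83647844-83649355, minus) and *Ccl4* (ENSMUSG00000018930, chr11:83662584-83664683, plus) are 13228 bases apart. *Gm17268* overlaps *Ccl2* and *E230016K23Rik* overlaps *Ccl6* on the opposite strand.

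Promoter sequences of 250 bases before the start were at hand for *Ccl3*, *Ccl6*, *Ccl9* and *Ccl12*, 4 of the 7 genes, and those of *Ccl2*, *Ccl4* and *Ccl7* were missing from the table. *Ccl6* and *Ccl9* shared a run of 13 bases, at -55 to -43 and -14 to -2, and the other pairs shared at most 7 to 9. The run was found on the same strand in 3 of 32851 promoters (0.00913%), with *Ccl6* and *Ccl9* counted among the 3. It was picked as the longest run the 2 promoters share, so this share is a description. A general NF-kB site was matched in *Ccl9* (1.41% of promoters) and a TATA box in *Ccl9* and *Ccl12* (12.4%), while a stricter NF-kB site (0.0852%) and sites of PU.1 (2.44%), C/EBP (0.164%) and AP-1 (4.46%) were matched in 0 of the 4. A match describes the sequence only. The 2 promoters (RefSeq GRCm38.p6, minus strand, chr11:83593088-83593337 and chr11:83578637-83578886) read as follows, with the shared run in capitals.
Ccl6: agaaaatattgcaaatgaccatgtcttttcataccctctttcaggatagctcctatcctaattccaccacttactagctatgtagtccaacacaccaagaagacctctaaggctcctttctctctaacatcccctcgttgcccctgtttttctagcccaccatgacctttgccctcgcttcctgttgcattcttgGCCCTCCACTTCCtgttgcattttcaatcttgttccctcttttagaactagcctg
Ccl9: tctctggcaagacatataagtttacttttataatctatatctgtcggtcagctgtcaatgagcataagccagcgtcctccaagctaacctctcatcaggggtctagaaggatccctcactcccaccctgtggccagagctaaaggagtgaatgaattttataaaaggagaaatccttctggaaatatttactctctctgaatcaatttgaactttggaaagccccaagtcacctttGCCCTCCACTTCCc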

How the data were processed

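The analysis used the UMI counts of Cell Ranger 6.0.1 (mm10, GRCm38) that the authors of the series deposited for 3 libraries, and the cDC1 table with clusters at resolution 0.8 made with Seurat (4.0.0 in the submitters' notes, version 3 in R 4.0.0 in the paper). The UMAP coordinates were not used. Of the table's cDC1s, 1885, 1299 and 1375 held the same number of UMIs in the matrix as in the table. The 7 genes and the gene lists were chosen with earlier results of these data known. The symbol Cd301b of the cDC2 list was not found in the matrices. Named genes were the 7 members, genes of the lists, 5 receptor genes, and for each member the 3 genes with the highest Pearson r of log2(CPM + 1) over 45 sums, members and the 3 gate genes left out.

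Barcodes outside the table were grouped by *C1qa* (at least 5 UMIs), *Cd209a* (at least 2 and no *C1qa*) and *Ncr1* (at least 1), in that order, so that each was used once. UMIs were summed by library and group to 12 sums and tested in edgeR 4.0.16 (quasi-likelihood, TMM, filterByExpr, R 4.3.3) with Benjamini-Hochberg adjustment at 0.05. The library, a pool of the same mice, paired the groups, and correlations of deviations over 15 pairs were 0.0488 to 0.361. The 3 libraries served as replicates of a group, 1 per genotype. Clusters and genotypes were not tested. Intervals were exact Poisson or Clopper-Pearson at 95%. Shares of cells were compared after thinning to 3000 UMIs, with unthinned shares beside them. Barcodes found in 2 libraries numbered 26, 28 and 27, and 38 symbols were shared by more than 1 gene. No doublet caller was run.

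Gene lists were other CC chemokines, NF-kB response genes, dissociation response genes and markers of 11 cell types. Alternatives were DESeq2 1.42.0, library size scaling, no low-count filter, the library as a block, each library left out, thinning, a cell filter (at least 200 genes and at most 17.5% mitochondrial UMIs), barcodes with markers of 2 classes left out, overlapping *Ncr1* barcodes, and stricter or looser gates. Python 3.11.15, numpy 2.4.6, scipy 1.17.1, pandas 2.3.3 and matplotlib 3.10.9 were used. Whether counting took account of strand was not stated in the sources read.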

Additional observations from a re-analysis of the deposited data

Results flagged for a closer look

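Some log2 ratios of the *sGsn-/-* to the WT library pointed in opposite directions in different groups. For *Ccl2* the ratio was 0.43 in Ncr1 barcodes, -0.38 in cDC1s and -0.42 in Cd209a barcodes. *Ccl6* was at 0.29 in C1qa barcodes, -0.39 in cDC1s and -0.38 in Ncr1 barcodes. *Ccl7* was at 2.08 in Ncr1 barcodes and -0.44 in cDC1s. After thinning, *Ccl2* in Ncr1 barcodes was at 23.7 CPM in the *sGsn-/-* and 20.7 CPM in the WT library. *Ccl6* in C1qa barcodes was then at 353 and 319 CPM, and both positive ratios were smaller than without thinning. The differences between groups were not tested, as each genotype had 1 library, and the *Ccl7* value in Ncr1 barcodes fell below 10 CPM once barcodes with markers of 2 classes were left out.

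A signal was also counted in the 11776 barcodes that met none of the gates and that no comparison used (4992, 3037 and 3747 by library, median 8783 UMIs). Their mean CPM over the 3 libraries was 185 for *Ccl2*, 83.3 for *Ccl3*, 576 for *Ccl4*, 255 for *Ccl6*, 55.6 for *Ccl7*, 144 for *Ccl9* and 2.58 for *Ccl12*. These were above 0, and what cells they came from was not tested.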

How the results depend on the processing

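Of 455 alternative values of the 35 log2 fold changes, 418 kept their call and direction, 16 were stronger and 19 weaker. In 2 the direction was reversed. *Ccl6* in Ncr1 barcodes against cDC1s became 0.24 with overlapping barcodes, and *Ccl4* in Ncr1 against C1qa barcodes became 0.29 after thinning to 3000 UMIs, and the cause was not tested.

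Of 130 counts of genes called, 127 were within 1.5 times the reported count, though not all were equal to it. Genes higher in C1qa than in Cd209a barcodes numbered 4 to 7 when each library was left out, and thinning gave 1 higher in Ncr1 than in C1qa barcodes, where 0 had been called (the cause was not tested). The library as a block changed no call other than *Ccl7* in C1qa and *Ccl2* in Cd209a barcodes against cDC1s.

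Of 24 counts past 1.5-fold between libraries, 7 moved by more than 1.5 times or to or from 0. Between *sGsn-/-* and WT, C1qa barcodes went from 0 to 1 with 2-class barcodes left out (*Ccl12* -0.77). Cd209a barcodes went from 0 to 1 after thinning (*Ccl2* -0.59) and to 1 with the mean of per-cell CPM (*Ccl7* -0.64). Ncr1 barcodes went from 1 to 0 after thinning and to 0 with 2-class barcodes left out, where *Ccl7* fell below 10 CPM in both libraries while its log2 ratio was 1.40 and 1.21. Between *sGsn-/- Clec9a-/-* and *sGsn-/-*, C1qa barcodes went from 1 to 2 after thinning (*Ccl12* -0.88 and *Ccl9* 0.62) and to 0 with 2-class barcodes left out (*Ccl12* -0.24). Smaller steps were from 3 to 4 in Cd209a barcodes with 2-class barcodes left out and with the mean of per-cell CPM, and from 3 to 2 in Ncr1 barcodes with 2-class barcodes left out. Beyond the *Ccl7* floor the cause was not tested. Of 167 single ratios 84 moved, and of 24 cluster 2 levels 1 did.

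Low counts limited comparisons of *Ccl12* outside C1qa barcodes, where cDC1s held 13 UMIs and Ncr1 barcodes 10, and of *Ccl9* in cDC1s. Each genotype had 1 library, the SD over libraries includes genotype, and no second pool checked a difference between genotypes. The gates use 1 gene each. Tumours of all genotypes were digested by the same protocol. Pre-cDCs, cDC1s and cDC2s were sorted through separate gates and then pooled by genotype. The counts do not record which gate a barcode passed, so whether groups shared a sort gate was not known.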

Other observations

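Barcodes outside the table were also ordered by their *C1qa* UMIs (0, 1 to 4, 5 to 9, 10 to 19, and 20 or more), with 18472, 2208, 474, 614 and 2635 barcodes. *Ccl2* was at 130, 229, 410, 420 and 608 CPM in these steps and *Ccl12* at 1.40, 3.58, 10.9, 9.42 and 56.8 CPM. *Ccl9* was at 117, 219, 311, 335 and 282 CPM and *Ccl6* at 195, 395, 527, 566 and 426 CPM as means over the 3 libraries. *Ccl4* was at 579, 477, 385, 473 and 797 CPM. No test was made over these steps.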
